A study of Mus musculus with 5 samples.

Results

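Transcripts of 9 complement genes, 6 encoding components (*C1qa*, *C1qb*, *C1qc*, *C3*, *Cfb*, and *Cfp*) and 3 encoding receptors for the anaphylatoxins (*C3ar1*, *C5ar1*, and *C5ar2*), were examined in macrophages. The genes were chosen by symbol, with earlier results of these data known. They were matched to the Entrez identifiers in the deposited tables, and all 9 were found among the 17058 genes with reads. The data are RNA-Seq libraries of bone marrow–derived macrophages (BMDMs) of the Balb/c strain, grown for 48 hours beside 4T1 cells, a mouse mammary carcinoma line, with a porous membrane between the cell types. In 2 libraries the 4T1 cells were the unedited parental line (WT), and in 3 they were *Adam17*-/- cells made by CRISPR/Cas9, so the macrophages of both groups carried an intact *Adam17* gene. ADAM17 is a protease that releases growth factors and cytokines from the cell surface. All 3 *Adam17*-/- samples bear the same knock-out designation, and the loss of *Adam17* and other traits of those cells cannot be told apart. The labels give no donor age and do not say whether the repeats came from different mice, so p-values measure the spread between these samples, which may be technical. The comparison asks whether complement transcripts in macrophages depend on ADAM17 in the neighboring cancer cells.

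Complement is a cascade of plasma and cell-derived proteins that tags particles and cells for uptake and calls in leukocytes. C1q, a recognition protein built from the products of *C1qa*, *C1qb*, and *C1qc*, opens the classical pathway, and all routes meet at C3, whose cleavage frees the anaphylatoxin C3a. Factor B (*Cfb*) forms the alternative pathway convertase with cleaved C3, and properdin (*Cfp*) stabilizes that enzyme. The small fragments C3a and C5a act through the receptors encoded by *C3ar1* and *C5ar1*, while *C5ar2* encodes a second C5a receptor that does not couple to G proteins. Macrophages are a major source of C1q and carry these receptors.

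The libraries held 14658694 to 20788373 expected counts, an estimate in which reads shared by transcripts are divided among them. Replicate pairs differed by more than sampling noise, with a chi-square per degree of freedom of 25.7 for the WT pair and 5.22 to 6.32 for the *Adam17*-/- pairs. The 2 WT libraries thus stood further apart, while the tests used 1 estimate of the spread for both groups. Each library was counted as a separate sample, though this excess does not show whether the repeats were biological or technical. Macrophage markers were abundant in every library, and 8 of them summed to 27659 to 28416 CPM (read counts relative to library size, TMM-normalized) in WT and 17945 to 19906 CPM in *Adam17*-/- cocultures. By edgeR, 6 of these 8 passed as lower (median of the 8 log2 fold changes, -0.59). The 9 neutrophil markers summed to 321 to 390 CPM in WT and 1133 to 1306 CPM in *Adam17*-/- cocultures, and 8 passed as higher. The 8 dendritic cell markers summed to 37.3 to 58.9 and 93.3 to 98.7 CPM, and 5 of 7 tested passed as higher. Mammary epithelial markers summed to 11 to 12.5 and 11.9 to 13.9 CPM, nearly all from *Cdh1*, with *Epcam* at 0 or 1 count. Of 6 megakaryocyte markers 4 passed as higher and *Ppbp* as lower (log2 fold change -1.55), with sums of 282 to 298 and 203 to 295 CPM. Of 5 eosinophil markers, with sums of 4.82 to 6.80 and 13.7 to 18.9 CPM, 3 were tested and *Siglecf* passed as higher. Of 5 fibroblast markers, with sums of 29.4 to 33.1 and 24.2 to 107 CPM, 4 were tested and *Col3a1* passed as higher, while *Col1a1* stood at 66.3 CPM in *Adam17*-/- replicate 3 and at 11.5 to 23.2 CPM in the other libraries. Hepatocyte markers were nearly absent, with sums of at most 0.109 CPM. *Adam17* itself, intact in the macrophages and so no check of the deletion, was at 198 and 199.6 CPM in WT and 152, 164, and 161 CPM in *Adam17*-/- cocultures, and passed as lower (log2 fold change -0.32, adjusted p = 0.0129, edgeR). In bulk RNA, fewer cells of a type and less RNA per cell cannot be told apart, and the part of these marker shifts in the results that follow was not tested.

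Promoter sequences are shown for 3 members that were lower and whose windows held the motif searched first; those of *C3* and *C5ar1*, also lower, held none and are not printed. RefSeq (GRCm38.p6) windows of 250 bases before to 50 after a start site were found for 7 of the 9 genes, 8 windows in all. *C1qa* and *Cfb* were not matched. The letters GAGGAA, the core bound by PU.1, a transcription factor of the myeloid lineage, were searched on both strands, and capitals mark each match (TTCCTC where it lies on the other strand). They occurred in 28.3% of 32851 mouse promoter windows and in 4 of the 8 windows here, those of *C1qb*, *C1qc*, *Cfp*, and 1 of the 2 starts of *C5ar2*. *C1qb* and *C1qc* are shown as neighbors in the C1q cluster and *Cfp* as the member with the largest decrease, at chr4:136886151-136886450, chr4:136892865-136893164, and chrX:20931506-20931805, all read from the minus strand.
C1qb: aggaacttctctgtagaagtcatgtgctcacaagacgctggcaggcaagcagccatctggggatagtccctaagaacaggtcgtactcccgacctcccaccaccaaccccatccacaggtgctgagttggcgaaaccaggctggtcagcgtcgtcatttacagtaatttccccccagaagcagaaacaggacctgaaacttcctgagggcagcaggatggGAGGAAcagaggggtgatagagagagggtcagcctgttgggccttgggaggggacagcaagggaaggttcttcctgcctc
C1qc: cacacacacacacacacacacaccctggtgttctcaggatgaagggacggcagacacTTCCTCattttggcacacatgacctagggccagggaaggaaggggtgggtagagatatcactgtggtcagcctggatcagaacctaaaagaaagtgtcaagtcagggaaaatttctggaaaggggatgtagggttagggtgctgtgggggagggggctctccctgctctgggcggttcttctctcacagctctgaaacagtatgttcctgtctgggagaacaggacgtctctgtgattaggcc
Cfp: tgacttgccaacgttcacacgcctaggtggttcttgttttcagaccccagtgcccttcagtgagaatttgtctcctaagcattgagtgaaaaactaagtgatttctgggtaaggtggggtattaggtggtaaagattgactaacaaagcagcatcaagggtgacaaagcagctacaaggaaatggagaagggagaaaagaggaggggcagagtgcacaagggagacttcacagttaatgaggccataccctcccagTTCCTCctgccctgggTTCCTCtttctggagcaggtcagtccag
Counted from the start site, the match begins at base -30 in *C1qb*, at -193 in *C1qc*, and at 6 and 22 in *Cfp*. The windows of *C3*, *C3ar1*, and *C5ar1* held no GAGGAA, and matches were found both among members that were lower and among those that were not. Other motifs searched the same way were the AP-1 site TGACTCA, in 5.2% of all windows and in 1 of the 8, that of *C3ar1*, and 4 that none of the 8 held. These were the CRE TGACGTCA (1.8% of all windows), the E-box CACGTG (7.2%), the EGR site GCGTGGGCG (0.6%), and the STAT site TTCNNNGAA (8.3%). A match is a run of letters, and binding was not measured.

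Beside *Adam17*-/- 4T1 cells, macrophages had lower levels of 6 of the 9 transcripts (adjusted p no higher than 0.05, edgeR quasi-likelihood test, Benjamini-Hochberg adjustment over 12576 genes), where 16.8% of all genes tested were lower. These were all C1q subunits, *C3*, *Cfp*, and *C5ar1*. By the same test 0 of the 9 were higher, against 14.9% of all genes, with 1 (*C5ar2*) higher at an unadjusted p under 0.05 and 0 with DESeq2. No member reached an absolute log2 fold change of 1 with an adjusted p of 0.05 or less (0 of 9, against 4.22% of all genes, and 0 with DESeq2). The median log2 fold change was -0.52 over the 9 members and 0.01 over all genes. In 8 of the 9 genes the groups did not overlap, which held for 58.1% of all genes tested. Since the members were chosen with earlier results of these data known, these comparisons with all genes are description only. With library size alone as the scaling, 3019 genes were higher and 1077 lower, against 1869 and 2114 with TMM, and 5 members were lower and 1 higher. Abundant genes leaned the same way: of 690 genes with a mean of 250 CPM or more, a limit chosen after the values were seen, 39.4% were lower and 11.4% higher, with a median of -0.19.

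**Figure D1:**
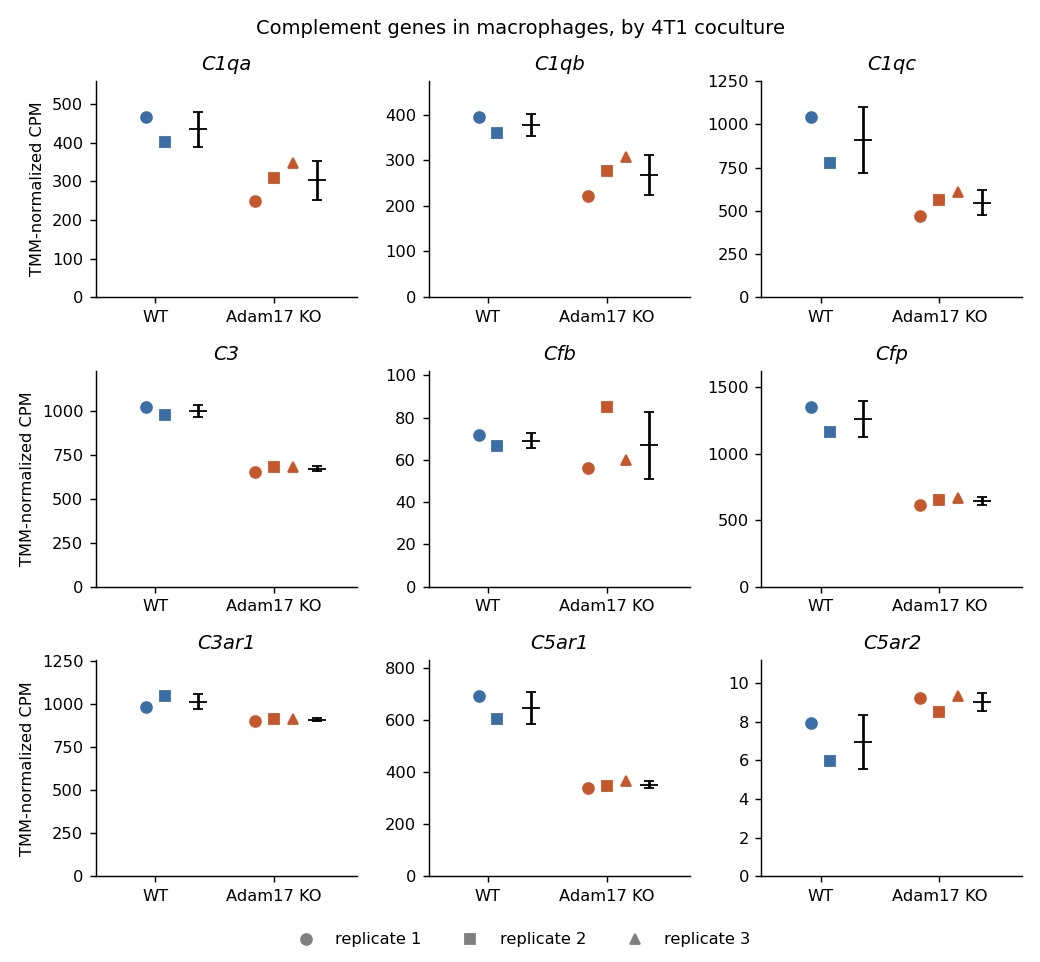
TMM-normalized CPM of the 9 complement genes (y axes from 0) in WT and Adam17-/- (KO) cocultures, 1 point per library with the replicate number as its shape; the dash and bars are the mean and SD (n = 2 and n = 3). All KO points lie under both WT points for the C1q genes, C3, Cfp, C3ar1, and C5ar1, above them for C5ar2, and on both sides of them for Cfb.

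*C1qa*, *C1qb*, and *C1qc* encode the A, B, and C chains of C1q, and each C1q molecule needs all of them. They lie side by side on the minus strand of chromosome 4 (GRCm38), *C1qb* at 136880126 to 136886200, *C1qc* at 136889801 to 136892936, and *C1qa* at 136895916 to 136898844, together spanning 18719 bases. *C1qa* (Entrez Gene 12259) stood at 466 and 402 CPM in WT replicates 1 and 2 and at 249, 309, and 349 CPM in *Adam17*-/- replicates 1, 2, and 3. *C1qb* (12260) stood at 394 and 361 CPM in WT and at 221, 275, and 307 CPM in *Adam17*-/- libraries. *C1qc* (12262) stood at 1043 and 775 CPM in WT and at 470, 562, and 611 CPM in *Adam17*-/- libraries. In each gene all *Adam17*-/- libraries were under both WT libraries, and the libraries kept one order across the subunits, with *Adam17*-/- replicate 1 the lowest and WT replicate 1 the highest. The fall of *C1qa* was a log2 fold change of -0.52 ± 0.132 (SE; adjusted p = 0.0159, edgeR), from a mean of 434 ± 45.4 CPM (SD, n = 2) to 302 ± 50.2 CPM (SD, n = 3). *C1qb* changed by -0.50 ± 0.126 (SE; adjusted p = 0.0161), and *C1qc* by -0.73 ± 0.140 (SE; adjusted p = 0.00496). The calls of *C1qa* and *C1qb* lay near the threshold. Without *Adam17*-/- replicate 1 they were lost, with smaller changes of -0.38 and -0.35 (adjusted p = 0.0585 and 0.0593, edgeR). They were also lost without replicate 2, where the changes stayed at -0.52 and -0.50 (adjusted p = 0.0555 and 0.0556), and in both FPKM fits. *C1qb* alone was lost with library size as the only scaling (-0.35, adjusted p = 0.0548), and *C1qc* passed under all 13 alternatives.

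Levels of the chains were compared with each other by FPKM, which corrects for transcript length. The FPKM ratio of *C1qb* to *C1qa* was 0.863 and 0.914 in WT and 0.907, 0.909, and 0.898 in *Adam17*-/- libraries, so that the groups overlapped. *C1qc* was the most abundant of the 3, at 2.28 and 1.96 times the FPKM of *C1qa* in WT and 1.92, 1.86, and 1.78 times in *Adam17*-/- libraries. Here the *Adam17*-/- ratios were all lower, though the group means (2.12 and 1.85) differed by less than the WT replicates did (exact permutation test, two-sided, p = 0.2, the smallest that 2 samples against 3 allow). Across the 5 libraries, the genes whose log2 CPM followed the mean of the C1q genes most closely, among 8484 others with a mean of 10 CPM or more, were *Csf1r* (Pearson r = 0.998), the receptor for CSF-1, *Smad5* (0.998), *Abhd17a* (0.997), *Marveld1* (0.996), and *St6galnac4* (0.996). With 5 libraries that share the difference between the groups, these values only describe likeness. Of these 5, *Abhd17a* (-0.33) and *St6galnac4* (-0.39) passed as lower, while *Csf1r* (-0.29, adjusted p = 0.0520), *Marveld1* (-0.27, adjusted p = 0.0637), and *Smad5* (-0.07, adjusted p = 0.566) did not.

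*C3* (12266, chromosome 17, 57203967 to 57228136), the central component, showed little spread within groups. It stood at 1022 and 975 CPM in WT and at 652, 678, and 678 CPM in *Adam17*-/- libraries, a log2 fold change of -0.58 ± 0.0790 (SE; adjusted p = 0.00114, edgeR). The gap between the groups was wide against the differences among replicates. *Cfp* (18636, chromosome X, 20925454 to 20931555), properdin, had the largest decrease of the 9, from 1356 and 1165 CPM in WT to 614, 650, and 670 CPM in *Adam17*-/- libraries. Its log2 fold change was -0.97 ± 0.0928 (SE; adjusted p = 0.000352), and -1.07 without WT replicate 2. Within each library, *Cfp* fell relative to *C3*: the FPKM ratio, chosen after the values were seen, was 4.29 and 3.86 in WT and 3.05, 3.11, and 3.20 in *Adam17*-/- libraries.

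*Cfb* (14962, chromosome 17, 34856374 to 34862514), factor B, did not follow. It stood at 71.7 and 66.5 CPM in WT and at 55.9, 85.1, and 59.9 CPM in *Adam17*-/- libraries. *Adam17*-/- replicate 2 was above both WT libraries and the other two were below them, so the groups overlapped. The log2 fold change was -0.05 (95% interval -0.40 to 0.31, adjusted p = 0.842, edgeR), and its sign depended on the scaling and on single libraries. The interval does not cover the changes of *C3* or *Cfp*. In FPKM, *C3* was 7.59 and 7.80 times *Cfb* in WT and 6.20, 4.24, and 6.02 times in *Adam17*-/- libraries, lower in all 3 (exact permutation test, two-sided, p = 0.2). GENCODE places a read-through gene, *Gm20547*, over *Cfb* on the same strand. The summed counts of *Cfb* were whole in every library, so no division of its reads with another gene was seen. Reads of a read-through transcript could still be counted to *Cfb*.

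Among the 5 genes whose log2 CPM followed *C3* most closely over the 5 libraries were *Eif5a* (r = 1.00), a translation factor, *Atp5b* (1.00) and *Atp5a1* (1.00), subunits of the mitochondrial ATP synthase, and *Uba1* (1.00), the ubiquitin-activating enzyme. These 4 passed as lower too, with log2 fold changes from -0.42 (*Eif5a*) to -0.77 (*Uba1*).

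The receptors for C3a and C5a parted. *C5ar1* (12273, chromosome 7, 16246743 to 16259540), the main receptor for C5a, stood at 693 and 604 CPM in WT and at 341, 349, and 366 CPM in *Adam17*-/- libraries. The groups lay far apart, with a log2 fold change of -0.88 ± 0.0877 (SE; adjusted p = 0.000381, edgeR). *C3ar1* (12267, chromosome 6, 122847140 to 122856157), the receptor for C3a, stood at 985 and 1045 CPM in WT and at 901, 915, and 913 CPM in *Adam17*-/- libraries. All 3 of the latter were under both WT libraries, but the difference did not pass (log2 fold change -0.16, 95% interval -0.34 to 0.02, adjusted p = 0.159). This separation depended on the scaling: the log2 fold change was -0.01 with library size alone and in the FPKM fits, and in FPKM the groups overlapped, at 214 and 237 in WT and 223, 224, and 223 in *Adam17*-/- libraries. The intervals of *C5ar1* (-1.08 to -0.68) and *C3ar1* did not overlap. Their FPKM ratio, chosen after the values were seen, needs no scaling between libraries and was 1.23 and 1.01 *C5ar1* per *C3ar1* in WT against 0.662, 0.668, and 0.703 in *Adam17*-/- libraries.

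*C5ar2* (319430, chromosome 7, 16234587 to 16244154) lies 2588 bases from *C5ar1* and was a scarce transcript. Its summed counts were not whole, so some reads may be shared with another gene. Rounded, they were 152 and 110 in WT and 169, 129, and 176 in *Adam17*-/- libraries. In CPM this was 7.95 and 5.95 against 9.25, 8.49, and 9.32, so that every *Adam17*-/- library was above both WT libraries. The log2 fold change of 0.38 ± 0.158 (SE) did not pass (adjusted p = 0.0976, edgeR), and its size depended on either WT library, with 0.18 without WT replicate 2 and 0.60 without WT replicate 1 (adjusted p = 0.392 and 0.0194). In FPKM, *C5ar2* was 0.00822 and 0.00701 of *C5ar1* in WT and 0.0195, 0.0175, and 0.0183 of it in *Adam17*-/- libraries, higher in all 3 (exact permutation test, two-sided, p = 0.2).

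**Figure D2:**
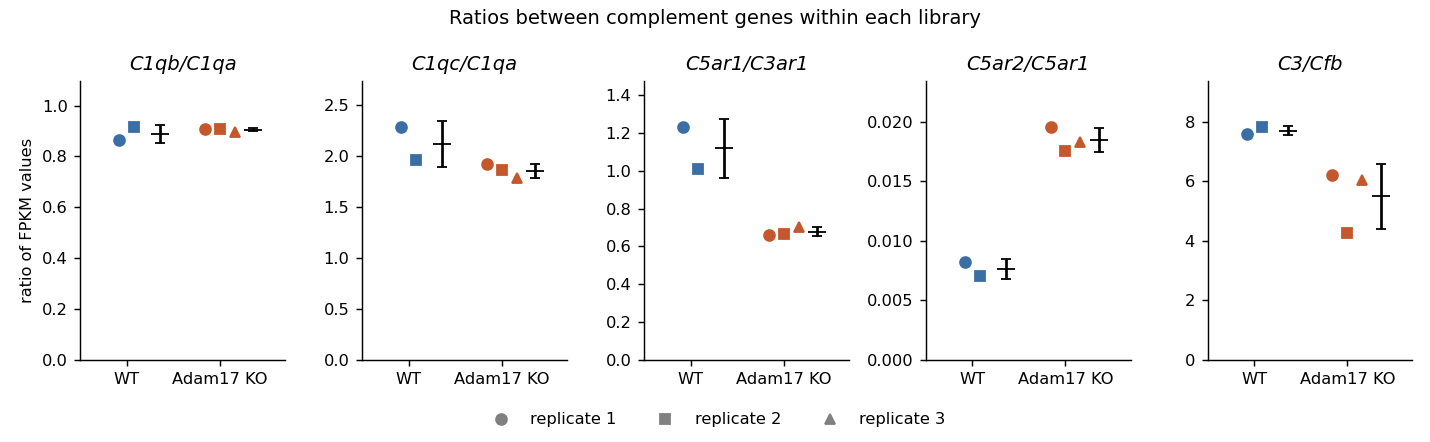
FPKM ratios between pairs of complement genes within each library (y axes from 0) in WT and Adam17-/- (KO) cocultures, 1 point per library, with mean and SD (n = 2 and n = 3). C1qb per C1qa overlaps between the groups, C5ar1 per C3ar1 is lower in every KO library (0.662 to 0.703 against 1.01 and 1.23), and C5ar2 per C5ar1 is higher in every KO library.

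At the level of transcripts, *C1qa*, *C1qb*, *C1qc*, *C3*, *C3ar1*, and *Cfp* each had 1 listed form. *C5ar1* had 2, and the shorter one (2481 bases) took 88.4% and 88.8% of the gene's counts in WT and 92.0%, 85.1%, and 92.8% in *Adam17*-/- libraries, with no separation of the groups. For *C5ar2*, the longer form (3522 bases) had 23.0 and 25.9 expected counts in WT and was listed in no *Adam17*-/- library, where all counts fell to the form of 3429 bases. These forms share most of their sequence and the split is an estimate from few reads. *Cfb* counts lay with 1 form, except for 11.1 counts of a second one in *Adam17*-/- replicate 1.

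Ranked by FPKM, the order of the 9 genes was nearly the same in both groups. *C1qc* led in every library, followed by *Cfp*, *C1qa*, and *C1qb*. Mean FPKM in WT was 856 ± 152 for *C1qc*, 754 ± 56.6 for *Cfp*, 402 ± 29.1 for *C1qa*, 357 ± 11.1 for *C1qb*, 251 ± 16.3 for *C5ar1*, 225 ± 16.8 for *C3ar1*, 185 ± 0.177 for *C3*, 24.0 ± 0.502 for *Cfb*, and 1.92 ± 0.339 for *C5ar2* (SD, n = 2). *C1qc* and *Cfp*, and likewise *C5ar1* and *C3ar1*, were not separated beyond their SD in WT. Mean FPKM in *Adam17*-/- libraries was 573 ± 71.0 for *C1qc*, 428 ± 16.1 for *Cfp*, 310 ± 49.5 for *C1qa*, 280 ± 43.6 for *C1qb*, 223 ± 0.479 for *C3ar1*, 151 ± 4.89 for *C5ar1*, 137 ± 2.22 for *C3*, 25.8 ± 6.0 for *Cfb*, and 2.79 ± 0.153 for *C5ar2* (SD, n = 3). There *C3ar1* and *C5ar1* changed places, and *C1qa* and *C1qb* were not separated beyond their SD. *C1qc* ranked between 39 and 95 among all genes of a library, while *C5ar2* ranked between 9403 and 9943.

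**Figure D3:**
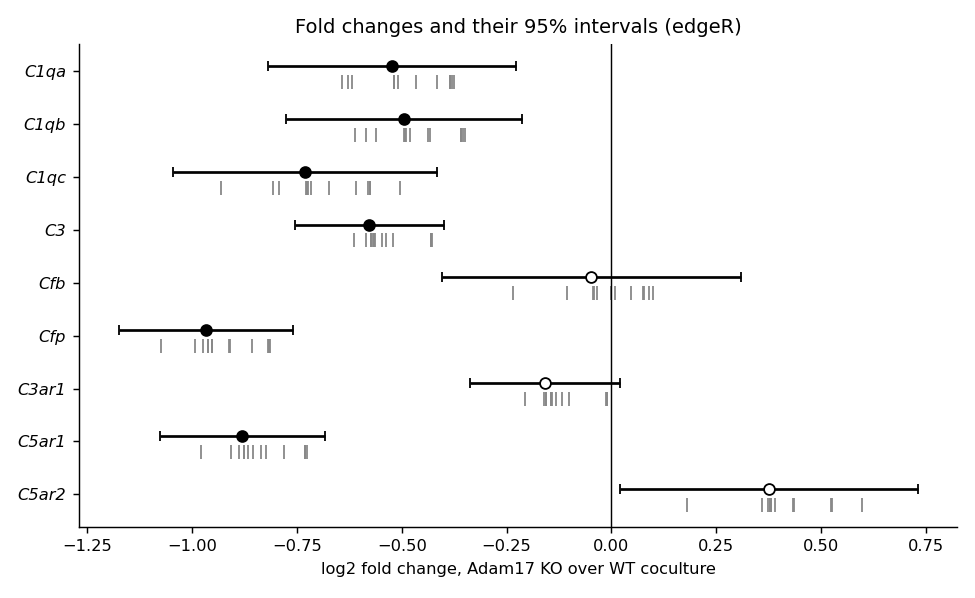
Log2 fold change of each complement gene, Adam17-/- (KO) over WT coculture, by edgeR; circles with bars are the estimate and its 95% interval, filled where the adjusted p is 0.05 or less, and gray ticks are the estimates under 13 alternative settings. The 6 filled genes stay under 0 in every setting, C5ar2 stays above 0, and Cfb lies on both sides.

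Since macrophage markers were also lower, each gene was set against the summed CPM of the 8 markers (*Adgre1*, *Csf1r*, *Cd68*, *Fcgr1*, *Mertk*, *Itgam*, *Lyz2*, and *Cd14*), a share added after the values were seen and in which the scaling between libraries cancels. *Lyz2* and *Itgam* made up most of this sum, neutrophils express both, and *Lyz2* counts, shared in part with its copy *Lyz1*, were not whole. The 3 C1q genes together came to 6.70% and 5.56% of it in WT and 5.24%, 6.20%, and 6.36% in *Adam17*-/- libraries. *C3* came to 3.60% and 3.53% in WT and 3.63%, 3.67%, and 3.41% in *Adam17*-/- libraries. For C1q and *C3* the groups thus overlapped on this scale. *Cfp* did not, with 4.77% and 4.21% in WT and 3.42%, 3.51%, and 3.37% in *Adam17*-/- libraries, nor did *C5ar1*, with 2.44% and 2.18% against 1.90%, 1.89%, and 1.84%. *C3ar1* was on the other side, with 3.46% and 3.78% in WT and 5.02%, 4.94%, and 4.59% in *Adam17*-/- libraries. So were the scarcer *Cfb*, with 0.252% and 0.240% against 0.312%, 0.460%, and 0.301%, and *C5ar2*, with 0.0280% and 0.0215% against 0.0515%, 0.0459%, and 0.0468%. *Cfb*, whose groups overlapped in CPM, was thus higher in every *Adam17*-/- library relative to this sum. Log2 fold changes of the 8 markers ran from -0.93 (*Cd68*) to -0.06 (*Mertk*), with -0.65 for *Lyz2* and -0.64 for *Itgam*. *Csf1r* (-0.29) and *Mertk* did not pass as lower. The shares of all these genes, C1q and *C3* included, therefore depend on which markers weigh most, and other sums were not tested.

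**Figure D4:**
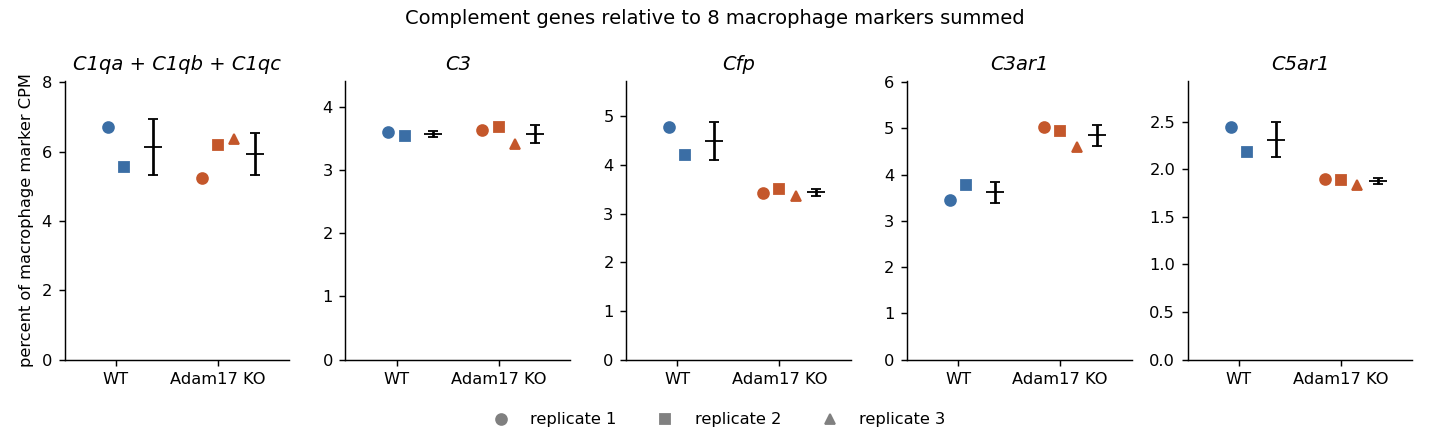
CPM of complement genes as a percent of the summed CPM of 8 macrophage markers (y axes from 0) in WT and Adam17-/- (KO) cocultures, 1 point per library, with mean and SD (n = 2 and n = 3). The groups overlap for the summed C1q genes and C3, while every KO library is lower for Cfp and C5ar1 and higher for C3ar1.

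A wider list of 50 complement genes held 24 that were tested, of which 8 were lower, 4 higher, and 12 did not pass, and their median log2 fold change was -0.22. Over all genes, 16.8% were lower and 14.9% higher, so the share of the list that was higher was near that of all genes. Among the 14 genes that act early in the classical and lectin pathways, 9 were tested and 1 passed. This was *Fcna*, a ficolin that recognizes sugars, with 16.2 and 14.2 CPM in WT and 6.08, 6.91, and 6.57 CPM in *Adam17*-/- libraries (log2 fold change -1.22 ± 0.130, SE; adjusted p = 0.000458, edgeR). *Fcna* passed under all 13 alternatives. *C1ra*, a protease that cleaves C1s, was the most abundant of this group at 43.4 ± 7.85 CPM (SD, n = 2) and 34.7 ± 0.582 CPM (SD, n = 3), but did not pass (adjusted p = 0.0563). *C2*, *C4a*, and *C4b*, whose products form the classical convertase, were all under 7 CPM on average and did not pass, and the counts of *C4a* and *C4b*, near-identical copies, were not whole. None of the 7 terminal pathway genes, which build the membrane attack complex, passed the filter on low counts, and *Hc*, the gene of C5, had 0 or 1 count per library. *Cfd*, the protease that activates factor B, also had 0 or 1 count.

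Of 9 other receptors and C1q-binding proteins, 8 were tested, 5 lower and 1 higher, beside 16.8% and 14.9% of all genes. *Itgam* and *Itgb2* encode complement receptor 3, which takes up particles coated with cleaved C3. *Itgam*, also on the list of macrophage markers, changed from 6844 and 7413 CPM in WT to 4316, 4546, and 4877 CPM in *Adam17*-/- libraries (log2 fold change -0.64, adjusted p = 0.00172, edgeR). *Itgb2* fell by 0.78 on the log2 scale (adjusted p = 0.000550). *Itgax*, the alpha chain of complement receptor 4 and also a dendritic cell marker, stood at 29.0 and 19.5 CPM in WT and 29.1, 50.5, and 45.7 CPM in *Adam17*-/- libraries (log2 fold change 0.78, adjusted p = 0.0298). Its lowest *Adam17*-/- library barely exceeded WT replicate 1, its counts were not whole, and it passed under 9 of the 13 alternatives. The adjusted p was 0.0911 with DESeq2, and by edgeR 0.0812 without WT replicate 2 and 0.0913 and 0.0832 without *Adam17*-/- replicates 2 and 3. *Cd93*, once described as a C1q receptor, *Calr*, an endoplasmic reticulum chaperone that also binds C1q, and *Lrp1*, an endocytic receptor, were lower with log2 fold changes of -0.65, -0.98, and -0.54 (adjusted p = 0.00104, 0.000381, and 0.00538).

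Of 19 regulators, which restrain complement, 7 were tested, 2 lower and 3 higher, on few genes and beside the same 16.8% and 14.9% of all genes. *Cr1l*, the membrane regulator Crry of rodents, was lower at -0.26 (adjusted p = 0.0430), and *Cd59a*, which blocks the membrane attack complex, at -0.51 (adjusted p = 0.0406). These calls held under 2 and 3 of the 13 alternatives. *Clu*, clusterin, a fluid-phase inhibitor and chaperone, rose from 5.65 and 5.41 CPM in WT to 14.9, 17.6, and 22.5 CPM in *Adam17*-/- libraries (log2 fold change 1.73 ± 0.187, SE; adjusted p = 0.000485), and passed under all 13 alternatives. *Cd46* had 14 and 7 counts in WT and 22, 23, and 32 in *Adam17*-/- libraries, and *Cd55* had 17 and 15 against 32, 25, and 34. Both passed as higher (adjusted p = 0.0224 and 0.0240) on few reads, and each passed under 7 of the alternatives.

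**Figure D5:**
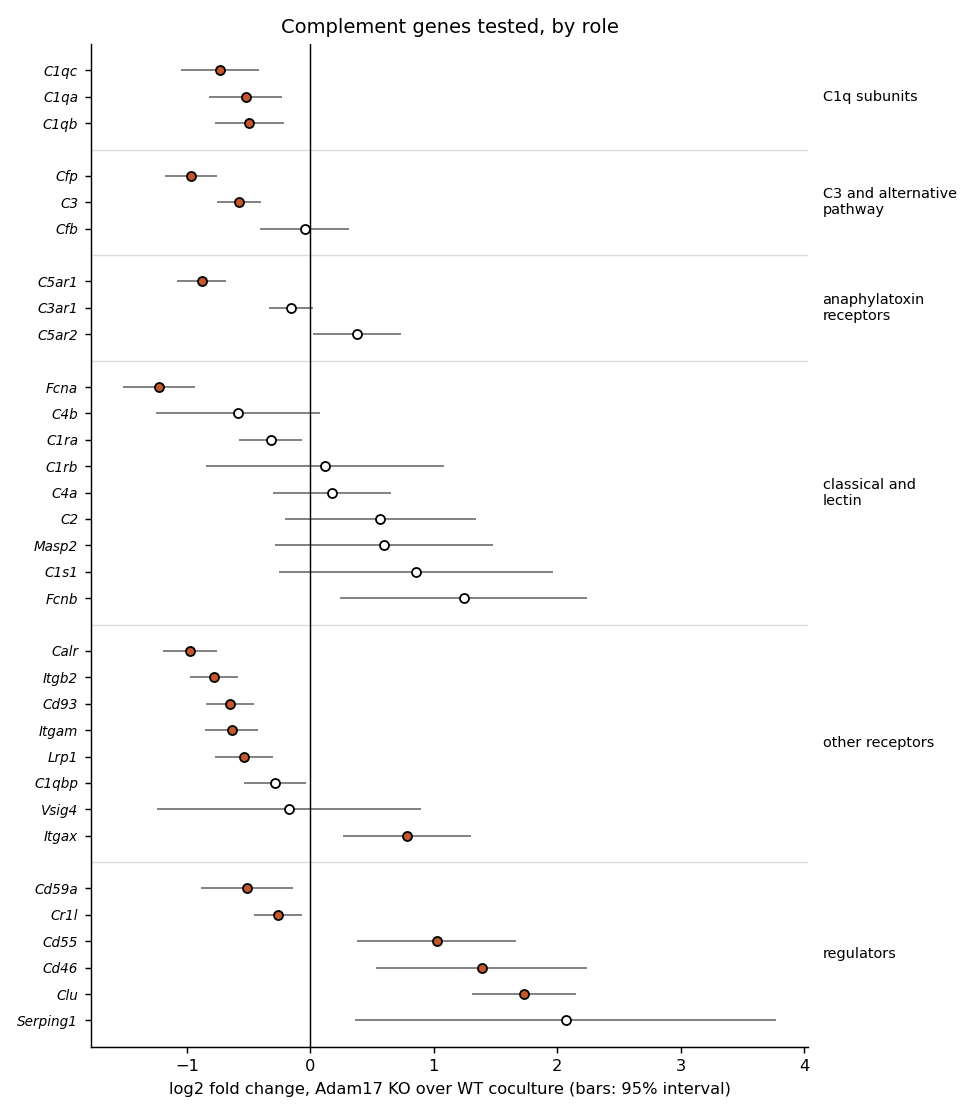
Log2 fold change, Adam17-/- (KO) over WT coculture, of 32 of the 33 complement genes tested, grouped by role, with 95% intervals from edgeR; filled circles have an adjusted p of 0.05 or less. All C1q subunits and most C1q-binding or C3-binding receptors lie under 0. Among the regulators, Clu, Cd46, and Cd55 lie above it, as does Serping1, which did not pass.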

How the data were processed

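RNA-Seq was analyzed for 5 BMDM samples, 2 with WT and 3 with *Adam17*-/- 4T1 coculture, grouped by the sample labels. Per the labels and methods, the authors sequenced poly-A selected RNA on a BGISEQ-500, aligned reads to GRCm38 (mm10), and quantified transcripts with Bowtie2 and RSEM; versions are not given in the sources used here. The authors deposited, per transcript, an FPKM value and an expected count without any normalization. Transcripts under 0.01 FPKM are not listed and were taken as 0. No strand-marking step is described, so reads of overlapping antisense genes cannot be told apart.

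Expected counts were summed per gene, rounded, and tested across all genes with edgeR 4.0.16 (TMM, filterByExpr, glmQLFit, glmQLFTest) in R 4.3.3, without covariates, over 12576 genes. Standard errors were derived from the fold change and its F statistic. DESeq2 1.42.0 and limma 3.58.1 were alternatives, beside those named in the closing section, and all scripts were tested on simulated data. Symbols (17015 of 17058) and coordinates came from RefSeq, and strands and overlaps from GENCODE M21. Likeness used log2 CPM with a prior count of 2. A count of 3, the floor, was 0.157 to 0.197 CPM. Named genes were the members, genes of the wider list, their markers, and the 5 genes most like C1q and *C3*; some of these are not reported here. Members and lists were chosen with earlier results of these data known.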

Additional observations from a re-analysis of the deposited data

How the results depend on the processing

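In place of TMM with edgeR, the tests were rerun with DESeq2, with upper quartile scaling, with library size alone, and with limma on FPKM (pseudocounts 0.1 and 1). Low counts were also kept, or genes limited to those with 10 counts or more per library, the replicate number entered as a block, and each library omitted. Where a group was left with 1 sample, it was assumed to vary like the other group. The number of members lower stayed between 4 and 6 of 9 under these settings and was 2 (*Cfp* and *C5ar1*) at an adjusted p of 0.001 with an absolute log2 fold change of 0.25, which 311 of the 12576 genes passed in either direction. With a replicate left out it was 4 to 6, losing *C1qa* and *C1qb* without *Adam17*-/- replicate 1 or 2. The number of members higher was 1 (*C5ar2*) with library size alone and in the FPKM fits, and 0 to 1 with a replicate left out. The number past a log2 fold change of 1 was 0 to 1 with a replicate left out (*Cfp* without WT replicate 2). Of the wider list, 2 genes were higher with DESeq2 and 1 to 6 with a replicate left out, against 4.

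*Cfb* changed sign to 0.0085 with upper quartile scaling, 0.0994 with library size alone, 0.0781 and 0.0761 in the FPKM fits, and 0.0885 and 0.0476 without *Adam17*-/- replicates 1 and 3, and was -0.24 without replicate 2. Library size alone and the FPKM fits moved the median of all genes to 0.16, 0.15, and 0.11. Relative to that median, the members changed by -0.97 (*Cfp*) to 0.37 (*C5ar2*) with library size alone. With the replicate block, 6 members were lower and 0 higher, as without it, while 1216 of all genes were higher and 1126 lower, against 1869 and 2114. Same-numbered samples did not deviate together (r = -0.12 and -0.05). With only 2 WT samples, whose deviations mirror each other, this cannot decide whether the numbers pair the samples.

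The fold changes of *C5ar2*, *Cd46*, and *Cd55* rested on few reads, while *Hc*, *Cfd*, *C6*, and *C8g* were left out by the filter on low counts. With low counts kept, none of these 4 passed (adjusted p = 0.540 to 0.914, edgeR).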
